A study of Rattus norvegicus with 7 samples.

Results

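A set of 9 genes that bind, carry or release metals is described here in rat cerebellum: Mt3, Fth1, Ftl1, Tfrc, Tf, Cp, Hp, Hmox1 and Slc40a1. They were chosen by symbol, as every probe whose transcript accession belongs to one of them, which gave 13 probes for the 9 genes among 15443 genes with a named probe. The MDD group held 3 female Wistar pups aged 21 days, born to and nursed by dams on a methyl donor deficient diet, which was short of folate and vitamin B12 and held less choline. The CTRL group held 4 female Wistar pups of the same age whose dams ate a standard diet. Each diet began 1 month before pregnancy and ended with weaning at 21 days. The labels call the pups biological replicates and name no dams or litters. The p-values therefore speak of the spread from pup to pup, and whether that includes spread between litters is not known. RNA came from ground cerebellum and was hybridised to 1-colour arrays.

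Values are log2 intensities relative to the 75th percentile of each array, so 0 marks that percentile and 1 unit is a 2-fold step. The percentile lay between 1140 and 2105 intensity units, 74.1% to 79.6% of spots were well above background, and 0 spots were saturated. All 13 probes of the 9 genes were well above background on all 7 arrays. The number of arrays limits the precision. A probe's signal also depends on its sequence, so a level is compared between pups. Summed marker signals add the probes of several genes and are weighted toward the brightest, which is named beside each sum where it holds over 50% of it. A difference passed the test where limma's Benjamini-Hochberg adjusted p over 19990 genes and unnamed probes was under 0.05. The defining genes of cerebellar neurons were present, with all 10 listed markers measured, among them the granule cell receptor subunit Gabra6 and the Purkinje cell protein Calb1.

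Metallothioneins are small cysteine-rich proteins that bind zinc and copper, and Mt3 is the form typical of the brain. Iron enters cells on transferrin (Tf) through its receptor (Tfrc), is stored inside shells of ferritin heavy and light chains (Fth1, Ftl1), and leaves through ferroportin (Slc40a1) with the help of the copper oxidase ceruloplasmin (Cp). Haptoglobin (Hp) captures free haemoglobin, and heme oxygenase (Hmox1) opens the haem ring and frees its iron. When iron is short, iron regulatory proteins bind stem-loops in these messages, which stabilises the Tfrc message and blocks translation of ferritin, so transcript levels of ferritin need not follow its protein.

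Of the 9 genes, 1 passed the test as higher in MDD (Mt3) and 2 as lower (Tfrc and Hp). Over all features tested, 20.4% passed in either direction, 12.7% as higher and 7.72% as lower. The same shares are the background for the count of each gene list given below. An unadjusted limma p under 0.05 was far more common, at 7759 of the 19990 features. That is the background for each count of unadjusted p-values in a list. The values of the groups did not overlap for 6 of the 9 genes, 4 higher in MDD and 2 lower, where 36.5% of all features did not overlap, 20.1% higher and 16.4% lower. The 4 higher were Mt3, Fth1, Ftl1 and Hmox1, of which Fth1 and Ftl1 change sign with the scaling, as given with their values. The median difference of the 9 genes was 0.24, beside -0.03 for all features, and it was -0.12 after quantile normalization and -0.13 in the authors' deposited table. With so few genes and so high a background, these counts describe the genes and set them apart from no other group. Across named genes the difference fell with genomic gene length (Spearman's rho -0.40, n = 11966 genes) and across features it rose with mean signal (rho 0.30, n = 19990). Genes are not independent replicates, so both are given as descriptions.

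The place of the arrays on the slide nearly followed the diet: all 3 MDD arrays and CTRL 4 were in row 2, and CTRL 1, 2 and 3 were in row 1. A fit with the row as a block therefore compares the MDD pups with CTRL pup 4 alone. It gave 0.93 for Mt3 (limma adjusted p = 0.147), -0.70 for Tfrc (adjusted p = 0.204) and -2.20 for Hp (adjusted p = 0.138), and none of them passed.

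**Figure D1:**
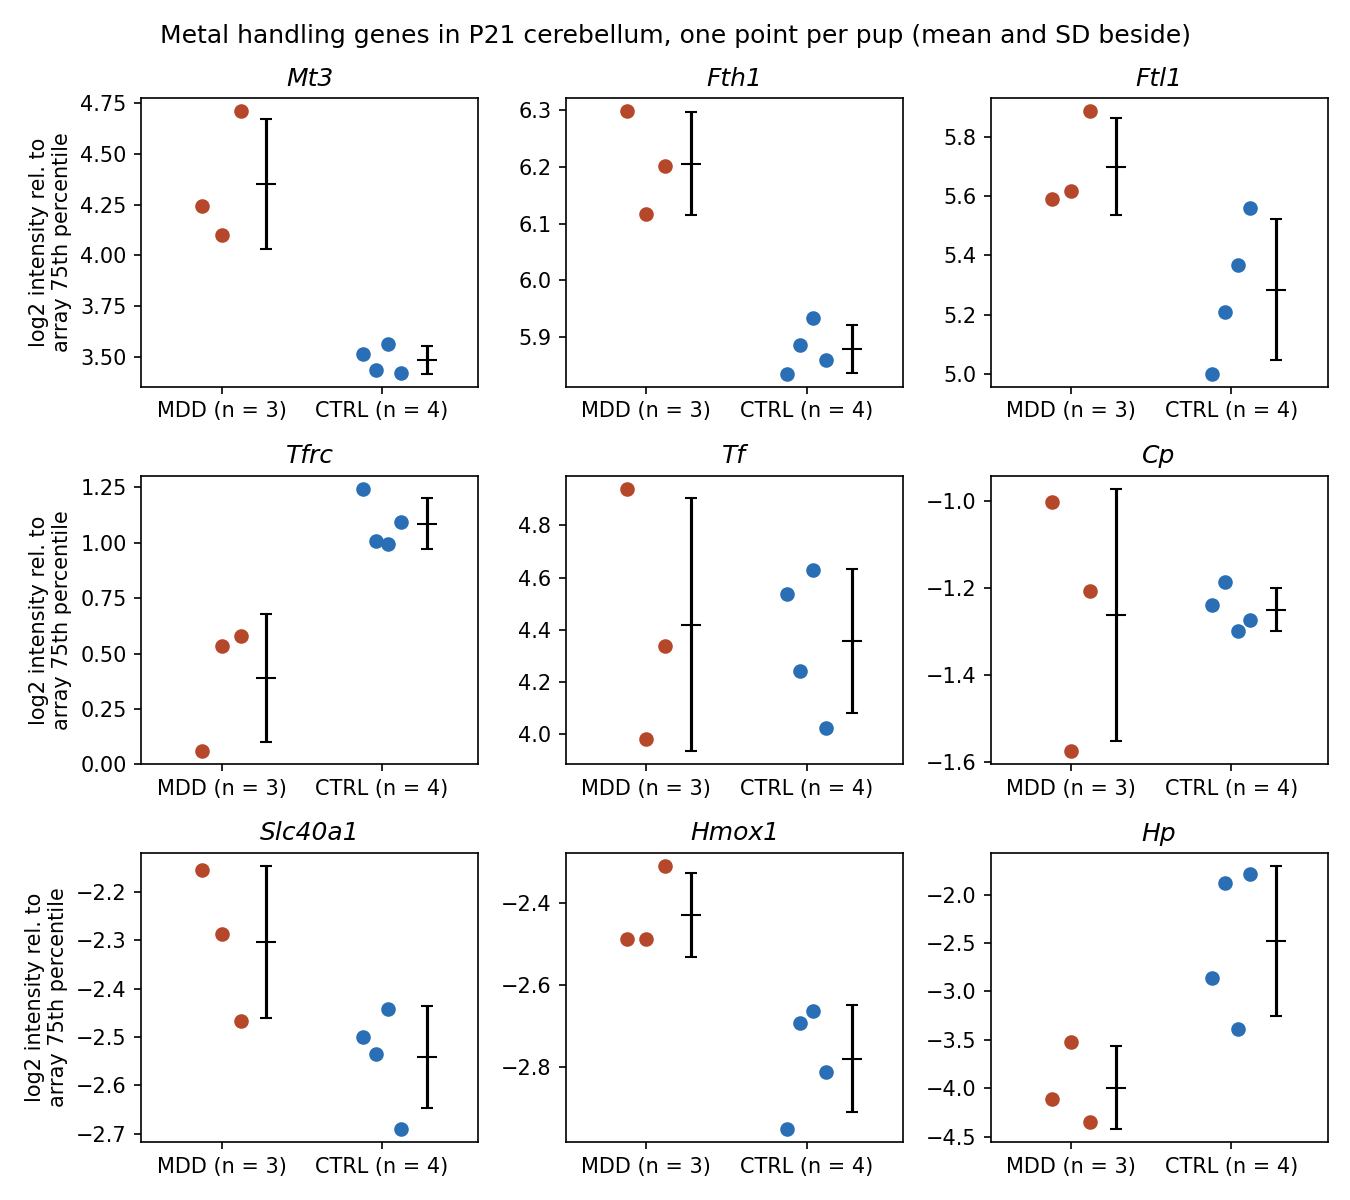
Log2 intensity relative to the array's 75th percentile (vertical axis) of the 9 genes, with 1 point per pup for MDD (left, n = 3) and CTRL (right, n = 4) and the mean and SD beside each group. Mt3 lies between 4.10 and 4.71 in MDD and between 3.42 and 3.56 in CTRL, Tfrc and Hp lie lower in MDD without overlap, and Tf, Cp and Slc40a1 overlap.

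Mt3 was the gene that rose. It stood at 4.24, 4.10 and 4.71 in MDD pups 1, 2 and 3, against 3.52, 3.44, 3.56 and 3.42 in CTRL pups 1 to 4. The lowest MDD pup was above the highest CTRL pup, and the MDD pups were the more scattered group. The means were 4.35 ± 0.32 in MDD (SD, n = 3) and 3.48 ± 0.07 in CTRL (SD, n = 4). The difference was 0.87 or 1.82-fold (SE 0.16, 95% interval 0.50 to 1.23, limma adjusted p = 0.0132). It passed without any one of the pups, with differences of 0.69 to 0.99. It was 0.47 after quantile normalization (adjusted p = 0.0355) and 0.48 in the authors' deposited table (adjusted p = 0.0308). With the trends on gene length and signal removed it was 0.23 and did not pass (adjusted p = 0.166).

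Mt3 is expressed by astrocytes as well as neurons in brain, so the astrocyte and Bergmann glia markers are given beside it. Their summed signal relative to the 75th percentile was 299 to 335 in MDD and 250 to 271 in CTRL, without overlap, but 69.9% of it came from the Aldoc probe (difference 0.37, adjusted p = 0.0541). A further Aldoc probe differed by 0.85. Without Aldoc the sums were 79.9 to 96.7 in MDD and 81.7 to 91.1 in CTRL, which overlap. Of the 9 markers 1 passed, Aldh1l1 at 0.51 (adjusted p = 0.0377), and it still passed with CTRL pup 1 left out but not with any other single pup left out. S100b (0.44), Gfap (0.41) and Gdf10 (0.13) also had higher means in MDD. Gja1 (-0.15), Aqp4 (-0.20), Slc1a3 (-0.06) and Slc1a2 (-0.01) had lower means in MDD. None of these passed in either direction. The part of these cells in the Mt3 difference was not tested. In bulk tissue, fewer cells of a type and less RNA per cell cannot be told apart. The other metallothioneins did not pass the test. Mt2A averaged 2.91 ± 0.46 in MDD and 2.60 ± 0.16 in CTRL (SD, difference 0.31, adjusted p = 0.316), and Mt1 averaged 2.21 ± 0.28 in MDD and 2.09 ± 0.22 in CTRL (difference 0.13, adjusted p = 0.631). Both are the widely expressed, inducible forms, and their highest MDD value was in pup 1, where that of Mt3 was in pup 3. Mtf1, the zinc-sensing factor that switches metallothionein genes on, differed by -0.39 (SE 0.20, adjusted p = 0.192). Mt4 was not well above background on any array. Of the 4 genes tested in this list, 1 rose and 0 fell, with a median of 0.22.

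The metal response element is the short DNA word that Mtf1 binds, and the upstream bases of Mt3 and Tfrc are shown because these genes passed in opposite directions and each holds the word. The letters TGCACNC or TGCGCNC were searched on both strands in the 250 bases before the gene start, in RefSeq promoters of the rat assembly GRCr8, which hold 5 of the 9 genes. The capitals mark the matches, on either strand and including overlaps, and each run is written 5′ to 3′ toward the gene start.
Mt3, chr19:10856081-10856330, minus strand: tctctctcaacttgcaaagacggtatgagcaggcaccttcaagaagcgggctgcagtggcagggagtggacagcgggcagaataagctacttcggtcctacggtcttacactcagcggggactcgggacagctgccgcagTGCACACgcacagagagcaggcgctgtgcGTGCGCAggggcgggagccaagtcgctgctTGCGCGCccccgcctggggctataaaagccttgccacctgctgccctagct
Tfrc, chr11:81690319-81690568, minus strand: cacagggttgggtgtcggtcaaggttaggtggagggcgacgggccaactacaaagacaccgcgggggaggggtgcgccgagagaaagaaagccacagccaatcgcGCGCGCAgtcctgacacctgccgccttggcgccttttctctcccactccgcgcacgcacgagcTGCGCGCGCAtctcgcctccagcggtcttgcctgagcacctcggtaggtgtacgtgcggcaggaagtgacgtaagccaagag
The Mt3 window holds 3 matches, whose first bases lie at -110, -81 and -51 from the gene start. The Tfrc window also holds 3, at -145, -82 and -79, of which the last pair overlap as TGCGCGCGCA on opposite strands. Tf holds 2 matches, and Cp and Slc40a1 hold 0. At least 1 match stands in 20.57% of the 33465 promoters of that length, and 3 or more stand in 1.171%. A match is a run of letters in this window and shows neither binding nor a cause of the differences. The windows are rich in G and C, at 62.8% for Mt3 and 64.8% for Tfrc, and the match holds mostly these bases.

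The ferritin genes had higher means in MDD on this scale and lower ones after quantile normalization, and neither passed the test. Fth1, the heavy chain that oxidises iron as it enters the shell, stood at 6.30, 6.12 and 6.20 in MDD pups 1 to 3, against 5.84, 5.89, 5.93 and 5.86 in CTRL pups 1 to 4. The pups of each group lay close together and the groups were apart. The means were 6.21 ± 0.09 in MDD (SD, n = 3) and 5.88 ± 0.04 in CTRL (SD, n = 4), a difference of 0.33 (SE 0.11, 95% interval 0.08 to 0.58, limma adjusted p = 0.0641). A further Fth1 probe differed by 0.26 (limma adjusted p = 0.142 over all kept probes). Ftl1, the light chain that helps the iron core form, stood at 5.59, 5.62 and 5.89 in MDD pups 1 to 3, against 5.0005, 5.21, 5.37 and 5.56 in CTRL pups 1 to 4. Here the groups nearly touched, at MDD pup 1 and CTRL pup 4. The difference was 0.41 (SE 0.16, interval 0.05 to 0.78, limma adjusted p = 0.0964).

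The sign of both ferritin differences depended on how the arrays were scaled. Fth1 was at -0.27 after quantile normalization, -0.29 in the authors' deposited table and -0.37 with the length and signal trends removed. Ftl1 was at -0.12, -0.13 and -0.28 under the same settings. No direction is therefore given for ferritin. The RefSeq table lists 6 further loci named after Fth1 and 22 named after Ftl1, and 0 of them have a probe of their own here. Whether the probes also bind transcripts of these copies was not tested. Among the other storage genes, the ferritin autophagy receptor Ncoa4 differed by -0.45 (adjusted p = 0.131), mitochondrial ferritin Ftmt by 0.56 (adjusted p = 0.118) and the iron chaperone Pcbp2 by -0.21 (adjusted p = 0.253). Of the 5 storage genes tested, 0 passed, and 3 had an unadjusted p under 0.05.

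**Figure D2:**
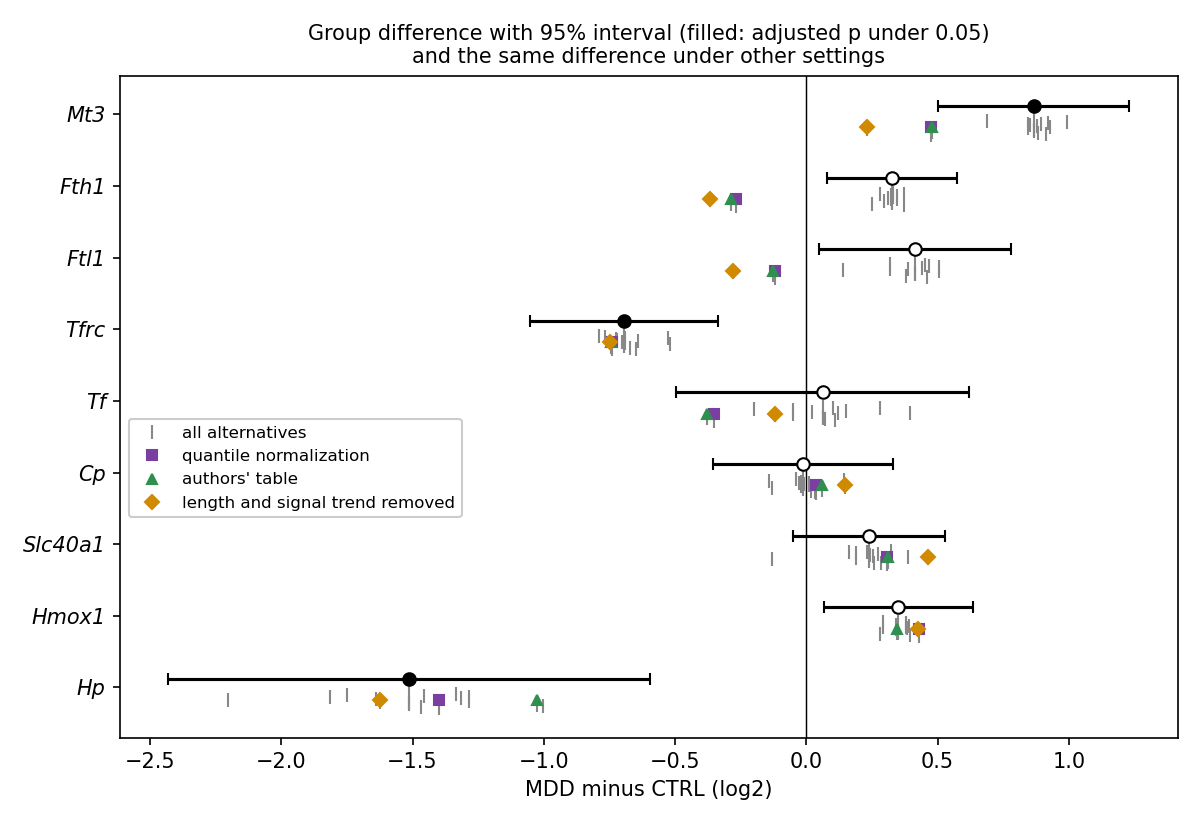
Difference MDD minus CTRL (horizontal axis, log2) for each gene, with its 95% interval above (filled where the adjusted p is under 0.05) and the same difference under the alternative settings below as ticks and coloured symbols. Mt3 is above 0 and Tfrc and Hp are below 0 throughout, and Fth1 and Ftl1 lie on both sides of 0.

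Tfrc, the receptor that takes up iron-loaded transferrin, was lower in MDD. Its probe with the higher mean signal stood at 0.06, 0.54 and 0.58 in MDD pups 1 to 3, against 1.24, 1.01, 0.996 and 1.10 in CTRL pups 1 to 4. All MDD pups were below all CTRL pups, and pup 1 of MDD was the lowest. The means were 0.39 ± 0.29 in MDD (SD, n = 3) and 1.09 ± 0.11 in CTRL (SD, n = 4). The difference was -0.69 or 1.62-fold lower (SE 0.16, 95% interval -1.05 to -0.33, limma adjusted p = 0.0224). A further Tfrc probe stood at -4.99, -4.32 and -4.28 in MDD, against -3.74, -4.43, -4.24 and -4.32 in CTRL. Its groups overlapped, and it differed by -0.35 (SE 0.23, limma adjusted p = 0.287 over all kept probes). With the mean over both probes the Tfrc difference was -0.52 and did not pass (adjusted p = 0.0803), and it did not pass without CTRL pup 1 (adjusted p = 0.0563), 3 (0.0532) or 4 (0.0652). With the length and signal trends removed it was -0.75 (adjusted p = 0.0299).

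Tf itself, made in brain by oligodendrocytes and choroid plexus, showed no difference beyond the spread of the pups. It stood at 4.94, 3.98 and 4.34 in MDD pups 1 to 3, against 4.53, 4.24, 4.63 and 4.02 in CTRL pups 1 to 4. The MDD pups spanned the whole range of the CTRL pups. The difference was 0.06 with a 95% interval of -0.49 to 0.62 (limma adjusted p = 0.870). Its sign turned without MDD pup 1 (-0.20) and without CTRL pup 4 (-0.05). The summed signal of 12 oligodendrocyte markers was 238, 269 and 367 in MDD pups 1 to 3 and 253 to 271 in CTRL pups. It was lowest in the MDD pup with the most Tf, and 71.7% of it came from Mbp. The Mbp probe in the sum differed by 0.15, and a further Mbp probe by -0.53. Without Mbp the summed signal was 74.9, 68.9 and 101.1 in MDD pups 1 to 3 and 66.0 to 80.1 in CTRL pups. That of 10 choroid plexus markers, of which 0 passed and 4 had an unadjusted p under 0.05, was 208, 118 and 278 in MDD pups 1 to 3 and 102 to 139 in CTRL pups, and 95.5% of it came from Ttr, which differed by 0.72 (adjusted p = 0.0909). Without MDD pup 2, 4 of the 10 choroid plexus markers rose and Ttr differed by 1.07 (adjusted p = 0.0109). Their part in the Tf level was not tested.

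Of 10 uptake genes tested, 0 rose and 1 fell, which was Tfrc, with a median of 0.01. Slc39a14 carries iron that is not bound to transferrin as well as zinc and manganese. It averaged -3.31 ± 0.71 in MDD and -2.39 ± 0.24 in CTRL (SD, difference -0.92, limma adjusted p = 0.0627). MDD pup 2, at -2.51, lay inside the CTRL range, and a further Slc39a14 probe differed by -0.34. Slc11a2, which moves iron out of the endosome, differed by 0.26 (adjusted p = 0.164). The iron regulatory proteins that act on the Tfrc message did not pass either: Aco1 differed by 0.16 (adjusted p = 0.335) and Ireb2 by -0.69 (adjusted p = 0.156). Of 7 iron regulation genes, 1 rose and 0 fell. The riser was Id1, a target of the bone morphogenetic protein signal that also drives hepcidin, which stood at -1.64 ± 0.20 in MDD (SD, n = 3) and -2.49 ± 0.08 in CTRL (SD, n = 4). Its difference was 0.84 (SE 0.13, limma adjusted p = 0.0103).

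Slc40a1, the only known exporter of iron from cells, gave opposite signs on its probes. The probe with the higher mean signal stood at -2.16, -2.29 and -2.47 in MDD pups 1 to 3, against -2.50, -2.53, -2.44 and -2.69 in CTRL pups 1 to 4. MDD pup 3 lay inside the CTRL range, and the difference was 0.24 (SE 0.13, 95% interval -0.05 to 0.53, limma adjusted p = 0.196). The other probe stood at -3.26, -3.11 and -3.16 in MDD, against -2.82, -2.61, -2.60 and -2.68 in CTRL. Its groups did not overlap, and it was lower in MDD by the fit over all kept probes, at -0.50 (SE 0.12, limma adjusted p = 0.0239). In the authors' deposited table the probes likewise differed by 0.31 and -0.26. Both carry the same transcript accession, so no direction is given for Slc40a1, and what sets the probes apart was not tested.

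**Figure D3:**
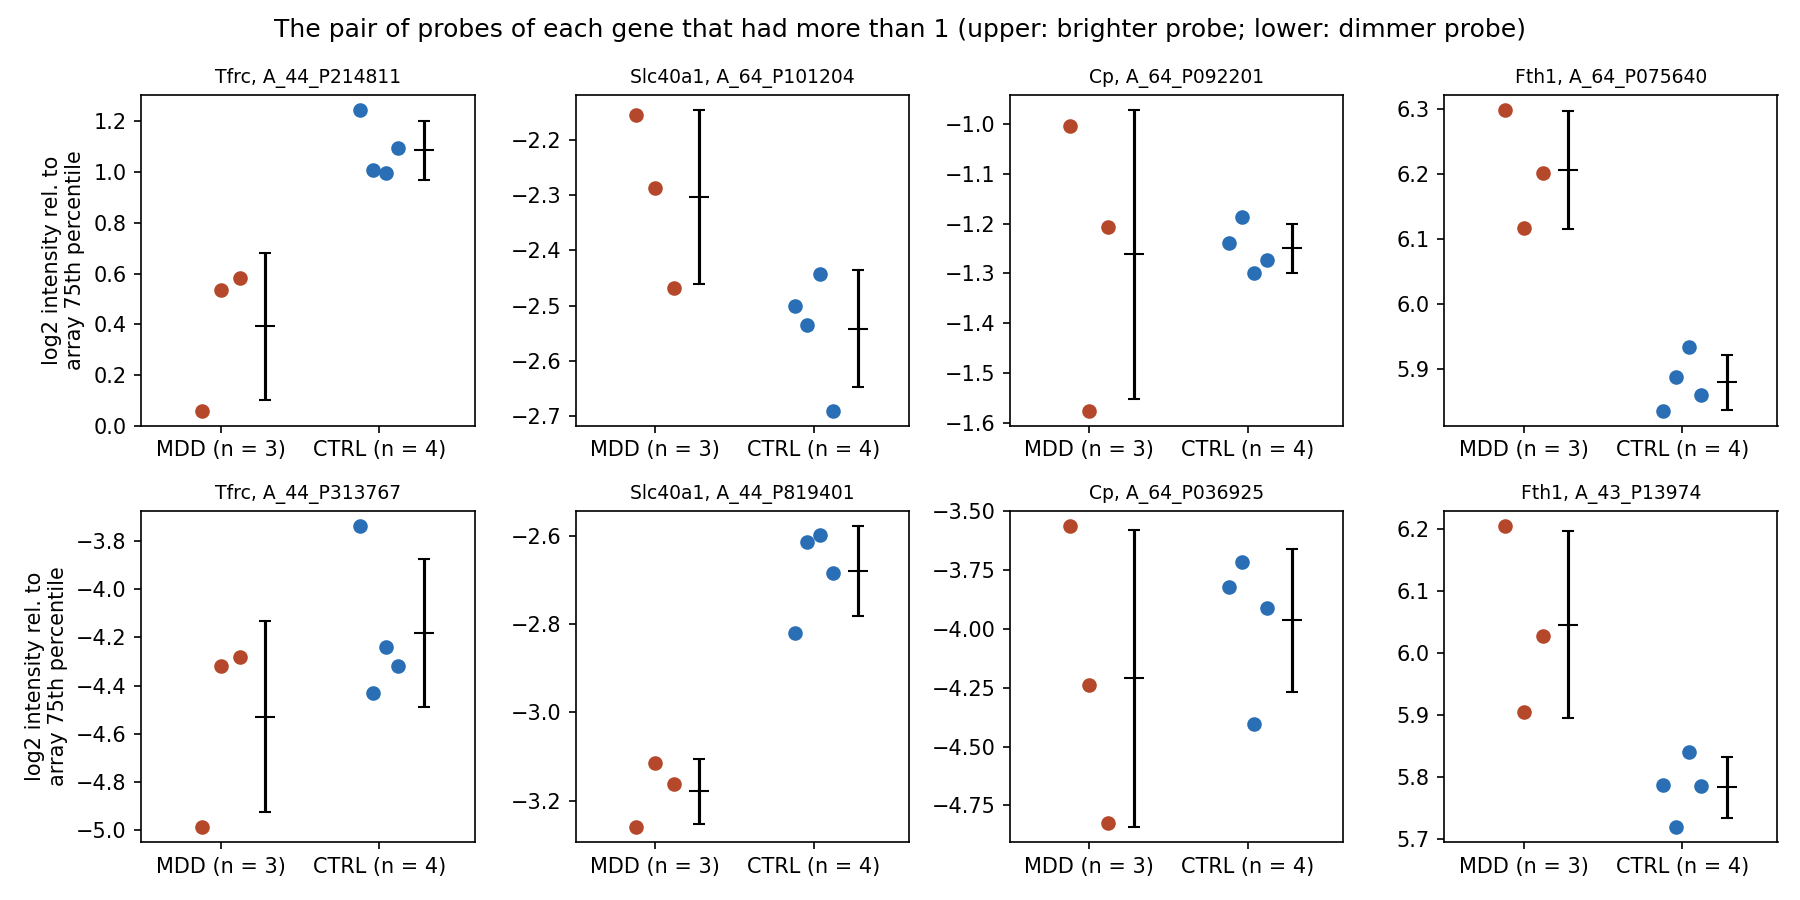
Log2 intensity relative to the array's 75th percentile (vertical axis) for the genes with more than 1 probe, with 1 point per pup in MDD (left) and CTRL (right) and the mean and SD beside, and 1 panel per probe. The Slc40a1 probes differ in opposite directions (0.24 and -0.50), and of the Tfrc probes only the upper one separates the groups.

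Cp, the copper oxidase that loads exported iron onto transferrin, stood at -1.004, -1.58 and -1.21 in MDD pups 1 to 3, against -1.24, -1.19, -1.30 and -1.27 in CTRL pups 1 to 4. The MDD pups lay on both sides of the tightly grouped CTRL pups. The difference was -0.01 with a 95% interval of -0.36 to 0.33 (limma adjusted p = 0.960). A probe for another Cp transcript differed by -0.25 (limma adjusted p = 0.560 over all kept probes). Of the 4 export genes tested, 0 passed and 0 had an unadjusted p under 0.05. They included Heph, the membrane-bound relative of Cp, at 0.20 (adjusted p = 0.555), and Hamp, the hormone hepcidin that removes ferroportin from the cell surface, at -0.38 (adjusted p = 0.205).

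Hp had the largest difference of the 9 genes. It stood at -4.11, -3.52 and -4.35 in MDD pups 1 to 3, against -2.86, -1.88, -3.39 and -1.79 in CTRL pups 1 to 4. CTRL pups 2 and 4 were high, and CTRL pup 3 was close to MDD pup 2, so the groups were apart by little. In processed intensity units this was 96.8, 137 and 56.0 in MDD pups, against 180, 573, 178 and 476 in CTRL pups. The means on the log2 scale were -3.99 ± 0.43 in MDD (SD, n = 3) and -2.48 ± 0.77 in CTRL (SD, n = 4). The difference was -1.51 or 2.85-fold lower (SE 0.40, 95% interval -2.43 to -0.60, limma adjusted p = 0.0344). It was -1.004 with normexp background correction and -1.02 in the authors' deposited table. It did not pass without CTRL pup 1 (adjusted p = 0.0558), 2 (0.0748) or 4 (0.0828), or without MDD pup 1 (0.0826) or 3 (0.102), and after quantile normalization its adjusted p was 0.0529.

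Hp is also an acute phase protein and is carried in neutrophils, so those genes are given beside it. Of 7 acute phase partners tested, Hp was the 1 that fell and 0 rose. Lcn2, which responds to the same inflammatory signals, differed by 0.32 (adjusted p = 0.428), Serpina3n by -0.26 (0.479) and Socs3 by -0.18 (0.535). Il6 and Il1b were not well above background on any array. Of 8 blood cell markers tested, 0 passed and 0 had an unadjusted p under 0.05, while 2 rose without MDD pup 2 and 1 without CTRL pup 3. Their summed signal was 229, 168 and 504 in MDD pups 1 to 3, against 128, 207, 203 and 220 in CTRL pups 1 to 4. The globin Hba-a1 gave 52.8% of it, and Hbb differed by 0.81 (adjusted p = 0.135), highest in MDD pup 3. Of the neutrophil genes, S100a8 differed by 0.27, S100a9 by 0.46 and Camp by -0.14, and Ngp was not well above background on any array. The part of blood in the Hp difference was not tested.

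Hmox1 stood at -2.49, -2.49 and -2.31 in MDD pups 1 to 3, against -2.95, -2.69, -2.66 and -2.81 in CTRL pups 1 to 4. The groups did not overlap. The means were -2.43 ± 0.10 in MDD (SD, n = 3) and -2.78 ± 0.13 in CTRL (SD, n = 4). The difference was 0.35 (SE 0.12, 95% interval 0.07 to 0.63) and did not pass the test (limma adjusted p = 0.0760). It did pass after quantile normalization, at 0.43 (adjusted p = 0.0495), and in the authors' deposited table, at 0.35 (adjusted p = 0.0454). Hmox1 is a target of the oxidative stress factor Nrf2, and of 10 genes in the Nrf2 list 0 passed and 3 had an unadjusted p under 0.05, with a median of 0.06.

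Blvrb, a biliverdin reductase, stood at 0.59 ± 0.46 in MDD (SD, n = 3) and -0.35 ± 0.05 in CTRL (SD, n = 4). Its difference was 0.95 (SE 0.20, limma adjusted p = 0.0184). The other biliverdin reductase, Blvra, differed by 0.30 (limma adjusted p = 0.191), and its groups overlapped. The haem and folate carrier Slc46a1 stood at -2.12 ± 0.29 in MDD and -2.70 ± 0.18 in CTRL (SD, difference 0.58, limma adjusted p = 0.0453). Of 10 haem clearance genes, 2 rose and 1 fell, with a median of 0.36. The one that fell was Hp. The number that rose was 0 without CTRL pup 3 and 0 without CTRL pup 4, where Blvrb had an adjusted p of 0.05003 and 0.0555. Hmox2, the constitutive oxygenase of brain, differed by 0.38 (adjusted p = 0.0743), and Cd163, the macrophage receptor for haptoglobin bound to haemoglobin, by 0.44 (adjusted p = 0.105). Microglia and macrophages recycle haem iron, and 7 of 12 microglia markers rose and 1 fell. Their summed signal was 16.6 to 21.6 in MDD and 13.3 to 13.8 in CTRL, without overlap. Trem2 and Tyrobp were higher, by 1.13 and 0.99, and Cx3cr1 was lower, by -0.89. Their part in the differences of the haem, ferritin and metallothionein genes was not tested.

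The genes that build haem and iron-sulphur clusters had more members higher in MDD than lower. All features tested leaned the same way, with 12.7% passing as higher and 7.72% as lower. Of 9 haem synthesis genes, 3 rose and 0 fell, with a median of 0.56. That median is the value of Alas2 (SE 0.51, adjusted p = 0.441), the form of red cell precursors, which is also in the blood marker list and was highest in MDD pup 3. Without MDD pup 3 the median was 0.26 and without CTRL pup 1 it was 0.33, and 2 to 4 genes rose when any one pup was left out. Urod, which trims the side chains of the porphyrin ring, stood at 3.72 ± 0.19 in MDD (SD, n = 3) and 2.84 ± 0.11 in CTRL (SD, n = 4), a difference of 0.88 (SE 0.13, limma adjusted p = 0.00991). Alad, the zinc enzyme of the second step, stood at 2.83 ± 0.10 in MDD and 1.96 ± 0.30 in CTRL (SD, difference 0.87, limma adjusted p = 0.0162). Ppox, the enzyme before iron insertion, differed by 0.60 (adjusted p = 0.0177). All 3 passed with the length and signal trends removed too, at 0.43, 0.61 and 0.42.

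Of 17 genes for mitochondrial iron and iron-sulphur clusters, 7 rose and 0 fell, with a median of 0.40. The number that rose was 0 without CTRL pup 4, 2 without CTRL pup 1, 2 or 3, 4 without MDD pup 1, 3 without MDD pup 3 and 2 without the filter on dim probes, with medians of 0.33 to 0.45 over the pups left out. Ciao1, of the cytosolic assembly machinery, was higher by 0.68 (adjusted p = 0.0134), the scaffold-side protein Isca2 by 0.57 (adjusted p = 0.0176), the assembly ATPase Nubp2 by 0.54 (adjusted p = 0.0279) and the glutaredoxin Glrx5 by 0.75 (adjusted p = 0.0330). With the length and signal trends removed, 0 of the 17 passed and the median was 0.13. Of 12 copper genes, 3 rose and 0 fell, with a median of 0.32. They were the copper chaperone Atox1 at 0.72 (adjusted p = 0.0175), the copper and zinc superoxide dismutase Sod1 at 0.64 (adjusted p = 0.0205) and Cox19 at 0.44 (adjusted p = 0.0388). Of these, Atox1 passed with the trends removed, and Sod1 and Cox19 did not. Among all 12 copper genes, 2 rose under that setting. Sod1 was 0.23 after quantile normalization (adjusted p = 0.263) and 0.17 in the authors' deposited table (adjusted p = 0.355). The number of copper genes that rose was 1 after quantile normalization, 1 without CTRL pup 3 and 0 without CTRL pup 4.

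Zinc moves out of the cytosol through Slc30 transporters and into it through Slc39 transporters. Of 6 Slc30 genes tested, 0 passed and 3 had an unadjusted p under 0.05, with a median of -0.32. The smallest p belonged to Slc30a4, which stood at -3.81, -2.51 and -2.01 in MDD and between -1.84 and -1.60 in CTRL (difference -1.08, SE 0.36, limma adjusted p = 0.0673). MDD pup 1 was far below the rest there. Of 11 Slc39 genes tested, 3 rose and 0 fell, with a median of 0.11. Slc39a1 was higher by 0.64 (adjusted p = 0.0135), Slc39a7 by 0.52 (adjusted p = 0.0210) and Slc39a3 by 0.76 (adjusted p = 0.0293). A further Slc39a1 probe differed by 0.08. The number that rose was 1 without CTRL pup 2, 3 or 4. With the length and signal trends removed, 0 of the 11 passed.

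**Figure D4:**
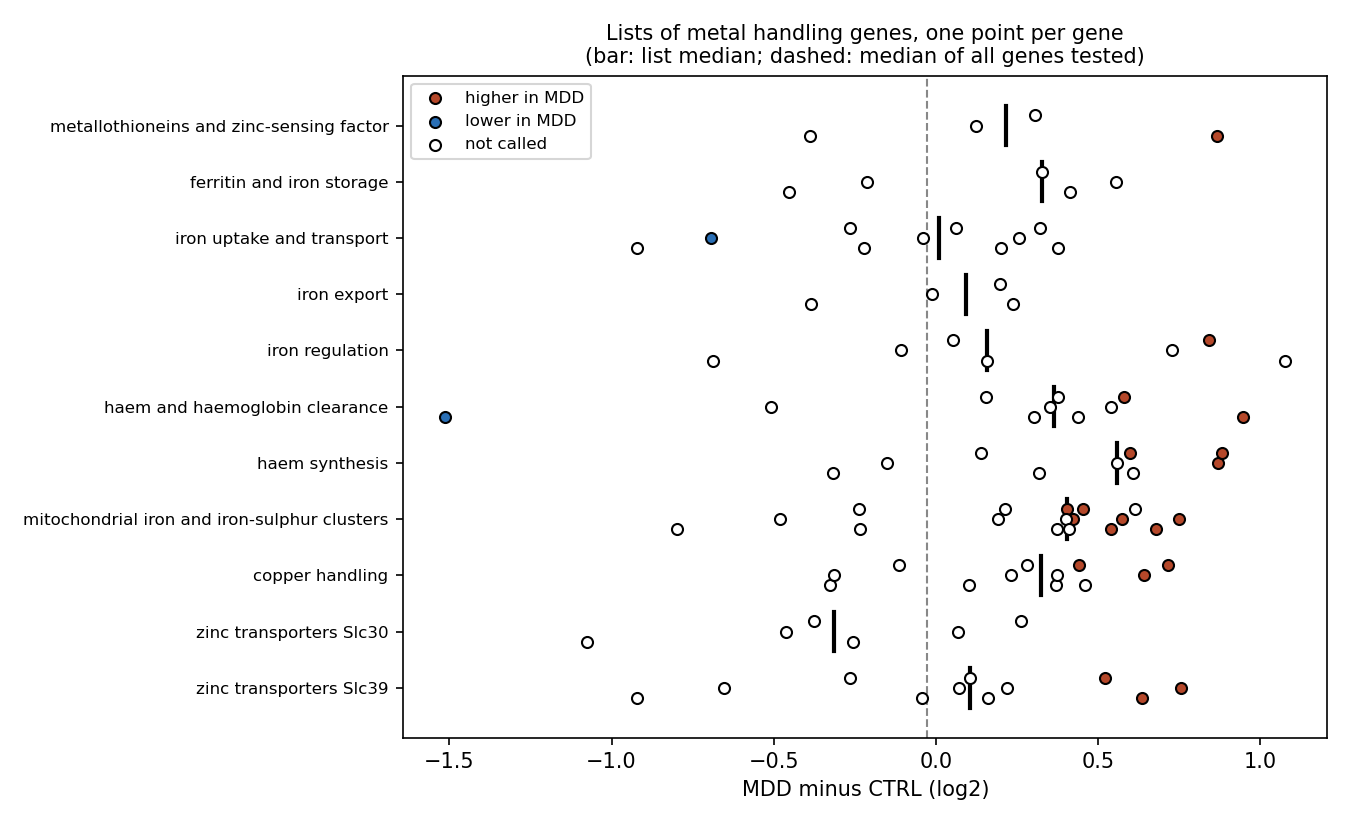
Difference MDD minus CTRL (horizontal axis, log2) of each gene tested in 11 lists of metal handling genes, coloured where the adjusted p is under 0.05, with a bar at each list's median and a dashed line at the median of all features (-0.03). Haem synthesis (median 0.56, and 0.26 without MDD pup 3) and iron-sulphur clusters (0.40) lie to the right of that line, and Slc30 transporters (-0.32) to its left.

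Of 12 oligodendrocyte markers, 0 rose and 2 fell, Ermn at -0.67 and Mobp at -0.57, while a further Mobp probe differed by -0.05 and the mean over both did not pass (-0.31, adjusted p = 0.0916). Neither passed without CTRL pup 2 or without CTRL pup 4. Of 10 endothelial markers, 1 rose, the junction protein Cldn5 at 0.68, which did not pass without CTRL pup 3 or 4. Abcb1a differed by -0.63 (limma adjusted p = 0.0815), and was well above background on 2 MDD and 4 CTRL arrays. Without MDD pup 1, 1 of the 10 endothelial markers rose and 1 fell. Of 8 meningeal fibroblast markers, 0 passed and 2 had an unadjusted p under 0.05. Of 10 cerebellar neuron markers, 0 rose and 3 fell, among them Gabra6 at -0.74 and Calb1 at -0.57. The number that fell was 0 without CTRL pup 2, 3 or 4 or without MDD pup 1. Without MDD pup 2, 1 rose and 4 fell. Pcp2 (0.51), Cbln1 (0.25) and Car8 (0.03) had higher means in MDD, and none of these passed. The other markers had lower means. The summed signal of the 10 markers was 204 to 218 in MDD and 196 to 219 in CTRL.

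The genes most like each member were found by Pearson's r over the 7 arrays, as a description of patterns in which the group difference itself takes part. Each match was picked as among the highest of all named genes over few arrays. A high r is therefore found for any member, also for Tf and Cp, and shows no link between the genes. Mt3 was most like Tmem254 (r = 0.998) and Cst3 (r = 0.997), which codes for the secreted protease inhibitor cystatin C. Fth1 was most like Pelo (r = 0.997) and Btbd17 (r = 0.994), and Ftl1 was like Edem2 (r = 0.969). Tfrc ran closest to Cald1 (r = 0.997) and C2h5orf22 (r = 0.996), and Hp to Acap2 (r = 0.978) and Robo2 (r = 0.976). Hmox1 ran closest to Bola3 (r = 0.996), an iron-sulphur cluster gene that is itself among those higher in MDD, and then to Dgat2 (r = 0.995). Tf was nearest to Efhb (r = 0.971) and RT1-S3 (r = 0.963), Cp to Faf1 (r = 0.984) and Oser1 (r = 0.975), and Slc40a1 to Tmco4 (r = 0.987) and Dym (r = 0.984).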

How the data were processed

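Per the file headers, the deposited scanner files give each Cy3 spot's intensity on a linear scale, from an Agilent rat array read with Feature Extraction 10.7.3.1 on a grid built on rn4. The processed signal has had background subtracted. The authors' own normalized intensities were deposited as a further table, whose columns name the group but not the pup. The sources used here do not say how that table was normalized. Flags of 0 or 1 in the deposited files were the score of the scanner software.

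Each value is the log2 processed signal with the array's 75th percentile taken off. Control and outlier spots were left out and spots of a probe averaged. Probes had to be well above background on 3 or more of 7 arrays, where an array counted if 50% or more of the probe's spots were, which left 22255 of 30367. Accessions were matched to a RefSeq table of GRCr8, which named 18355 probes, and a gene's kept probe with the highest mean stood for it. Groups from the sample titles were compared by limma (version 3.58.1, R 4.3.3, two-sided, all 7 arrays, Benjamini-Hochberg over 11966 named genes and 8024 unnamed probes, 5 residual degrees of freedom, 8.39 with the prior). The code was tested on simulated data. All arrays share 1 slide and 1 scan time, and their row on the slide, which nearly follows the diet, was tried as a block. The normexp alternative (offset 50) used the median spot signal, in place of the mean signal planned, with the local background median. Further alternatives were quantile and median scaling, the authors' table, other filters and probe rules, removal of length and signal trends, a replicate block and leaving out each pup.

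The genes and lists were chosen with earlier results of these data known. Named are all 9 genes, the 2 genes most alike to each, and from each other list at most 4 genes that passed, taken in order of p, or the first 2 in that order if none did. Some genes that this rule gives are not reported here. Other pathway genes named beside them, such as Mt1, Ncoa4, Slc39a14, Slc11a2, Aco1, Ireb2, Heph, Hmox2, Cd163 and Lcn2, were picked for their role after their values were seen.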

Additional observations from a re-analysis of the deposited data

Results flagged for a closer look

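The 9 metal handling genes and the genes named from the lists, 46 in all, were screened in the 4 CTRL pups for a pup that lay far from the other 3, by the gap to its nearest neighbour as a share of the whole range. This set 3 genes apart, all through CTRL pup 1, and chance alone sets about 1 gene in 20 apart. Slc6a13, a transporter of the meninges, stood at -2.47 in that pup, and the next CTRL pup at -1.79. Blvrb stood at -0.43 there, with the next CTRL pup at -0.33. Alad stood at 1.52, with the next CTRL pup at 2.07. No other group had 4 pups or more, and none of the 9 metal handling genes was set apart.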

How the results depend on the processing

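Among the 9 genes, 1 was higher and 2 were lower. The number higher was 2 with quantile normalization and 2 in the authors' table, 0 with the replicate block and 0 with the row on the slide as a block. The number lower was 1 with quantile normalization, 1 with the mean over probes, 0 without the filter on dim probes, 0 with the replicate block and 0 with the row block. Over all features, 2535 were higher and 1543 lower. With normexp 876 were lower (2310 higher, 72.5% of calls beside 62.2%). Without the filter, 1204 were higher and 388 lower, and with the trends removed 787 and 562. The replicate block left 0 higher and 0 lower by limma, with 6158 at an unadjusted p under 0.05, and the row block 0 and 1, with 4071. Leaving out 1 pup at a time gave 1 to 1 of the 9 genes higher and 0 to 2 lower, and 793 (without CTRL 4) to 2904 (without MDD 2) of all features higher and 221 to 2329 lower. Differences changed sign for Fth1 (-0.27 quantile, -0.29 authors' table, -0.37 trends removed), Ftl1 (-0.12, -0.13, -0.28), Tf (-0.35, -0.38 and -0.12, and -0.0489 with the replicate block, -0.20 to 0.28 without 1 pup), Cp (0.0355, 0.0604 and 0.15, 0.0333 with median scaling, 0.0190 with normexp, 0.0117 with the row block, -0.14 to 0.14 without 1 pup) and Slc40a1 (-0.13, mean over probes). The cause was not tested, and fewer degrees of freedom remain in the blocked fits. Replicate numbers did not pair the pups (correlations of 0.09, -0.18 and 0.22), and with the replicate block Mt3 was 0.85 (adjusted p = 0.0667), Tfrc had an adjusted p of 0.0967 and Hp of 0.0649. With the row block, which rests on CTRL pup 4 alone, the differences were 0.93 for Mt3, -0.70 for Tfrc and -2.20 for Hp. Tfrc and Hp lost their call without the filter (0.0533 and 0.0727). Slc40a1 passed with the trends removed (0.46, adjusted p = 0.0499). The 27 other genes named from the lists that passed kept their direction under all 18 alternatives, but 0 passed with the replicate block, 0 with the row block, 15 without the filter, 15 with the trends removed, and 8 (without CTRL 4) to 25 (without MDD 2) with 1 pup left out. Fitting every kept probe singly was chosen after seeing the data and left the counts of the 9 genes at 1 and 2.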
